A study of Mus musculus with 4 samples.

Results

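Clade A serpins include the main protease inhibitors that the liver secretes into plasma. 10 of them were examined in mouse liver, namely *Serpina1a*, *Serpina1b*, *Serpina1c*, *Serpina1d*, *Serpina1e*, *Serpina3c*, *Serpina3k*, *Serpina3m*, *Serpina3n* and *Serpina6*. They were taken by symbol from a table of TPM values (a level corrected for transcript length and scaled to the same total in every library) that lists 35739 genes. The liver RNA came from WT mice (replicates 2 and 3) and from *Usp21* KO mice (replicates 1 and 3), with 1 library each. *Usp21* encodes a deubiquitinating enzyme. The KO mice lacked exons 3 and 4 of the gene in every tissue, through Cre recombination of a loxP-flanked allele made in 129/Sv embryonic stem cells. WT mice were littermates, both genotypes shared a mixed B6 and 129/Sv background and a normal diet, and all were 10 to 11 weeks old. Neither the sex of the mice nor the hour at which the livers were taken is given in the sources used here, and nothing in the labels says whether a library came from 1 mouse, so the tests measure only the spread between these libraries.

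In the TPM table, 12876 to 13620 genes per library were listed above 0. *Usp21* was 4.07 and 6.29 TPM in WT against 1.64 and 2.93 TPM in KO livers, with no overlap between the groups. Hepatocyte markers summed to 54728 to 79984 TPM, and the pancreatic enzyme markers to 0.258 to 1.22 TPM, with 9 of those 10 genes at 0. Neutrophil and lymphocyte markers summed to 47.0 TPM in WT 3 and to 4.38 to 7.94 TPM in the other 3 libraries, so WT 3 stood apart. KO 1 stood apart in others: Kupffer cell markers summed to 118 TPM there and 220 to 299 TPM elsewhere, cholangiocyte markers to 44.3 against 18.6 to 28.2 TPM, and stellate cell markers to 168 against 85.3 to 118 TPM. Fewer cells of a type and less RNA per cell cannot be told apart in RNA from whole liver.

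Serpins inhibit proteases by a suicide mechanism. The protease cuts an exposed bait, the reactive centre loop, at the bond between the residues called P1 and P1′, and is trapped when the cut loop snaps into the body of the inhibitor. *Serpina1* encodes alpha-1 antitrypsin, whose main target is neutrophil elastase, and *Serpina3* encodes antichymotrypsin. Each is 1 gene in human and a set of tandem copies in mouse. *Serpina6* encodes corticosteroid-binding globulin, a serpin that carries corticosterone in blood and inhibits no protease.

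Pairs of mouse *Serpina1* copies, and the pair *Serpina3m* and *Serpina3n*, differ in the loop more than elsewhere. The coding sequence of the loop is shown for the *Serpina1* and *Serpina3* genes with a level above 0. The sequences come from the GENCODE M21 transcripts on GRCm38 and run 5′ to 3′ on the coding strand from the hinge glycine codon to the phenylalanine codon at the loop's end. All lie in exon 5, the last coding exon. Capitals mark codons 15 and 16 counted from the hinge glycine, which are P1 and P1′ in alpha-1 antitrypsin; in the *Serpina3* genes they mark the same codon count.
Serpina1a: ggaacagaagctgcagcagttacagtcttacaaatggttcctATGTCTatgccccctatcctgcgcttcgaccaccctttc
Serpina1b: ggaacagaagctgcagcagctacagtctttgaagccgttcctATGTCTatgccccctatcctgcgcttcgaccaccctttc
Serpina1c: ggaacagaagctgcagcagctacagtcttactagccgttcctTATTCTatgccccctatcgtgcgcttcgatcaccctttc
Serpina1d: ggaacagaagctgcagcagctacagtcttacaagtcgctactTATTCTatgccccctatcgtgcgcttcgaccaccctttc
Serpina1e: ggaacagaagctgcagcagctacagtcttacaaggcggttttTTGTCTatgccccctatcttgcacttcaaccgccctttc
Serpina3k: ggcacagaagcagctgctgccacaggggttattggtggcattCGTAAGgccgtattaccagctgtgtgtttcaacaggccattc
Serpina3m: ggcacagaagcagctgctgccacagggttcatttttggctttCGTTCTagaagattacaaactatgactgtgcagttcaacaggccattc
Serpina3n: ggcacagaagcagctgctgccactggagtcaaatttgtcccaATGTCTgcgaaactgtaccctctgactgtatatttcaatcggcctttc

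The first capital codon is ATG, for methionine, in *Serpina1a* and *Serpina1b*, TAT, for tyrosine, in *Serpina1c* and *Serpina1d*, and TTG, for leucine, in *Serpina1e*. In the *Serpina3* genes it is CGT, for arginine, in *Serpina3k* and *Serpina3m*, and ATG in *Serpina3n*. The *Serpina1* loops lie on the reverse strand of chromosome 12, at chr12:103853750-103853830 for *Serpina1a*, chr12:103728317-103728397 for *Serpina1b*, chr12:103895087-103895167 for *Serpina1c*, chr12:103763755-103763835 for *Serpina1d* and chr12:103947093-103947173 for *Serpina1e*. The *Serpina3* loops lie on the forward strand, at chr12:104345269-104345352 for *Serpina3k*, chr12:104393769-104393858 for *Serpina3m* and chr12:104413448-104413537 for *Serpina3n*. Within the 81 bases of the loop, pairs of *Serpina1* genes differed at 5 to 12 bases, or 6.2 to 14.8%, against 0.8 to 3.1% over the rest of the coding sequence. *Serpina3m* and *Serpina3n* differed at 28 of 90 loop bases, or 31.1%, against 13.6% elsewhere. The other *Serpina3* pairs have loops of unequal length and were not compared in this way.

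Outside the loop the *Serpina1* copies are close to identical, and this limits how well reads can be assigned to each; the *Serpina3* copies are less alike. The 5 *Serpina1* coding sequences are 1239 bases long and were 96.3 to 98.5% identical between pairs, and their proteins 92.7 to 97.3%. The 4 *Serpina3* coding sequences were 83.1 to 91.4% identical, and between *Serpina1* and *Serpina3* genes identity was 56.8 to 59.5%. Counted over stretches of 31 bases (31-mers), *Serpina1c* shared 85.8% of its annotated transcript sequence with another gene, *Serpina1a* 65.2%, *Serpina1d* 64.7%, *Serpina1e* 54.2% and *Serpina1b* 44.7%. An annotated pseudogene, *Gm8893*, holds 53.0% of the 31-mers of *Serpina1c* and 43.2% of those of *Serpina1a*. The levels of the 5 *Serpina1* genes taken singly are therefore uncertain. More than 50% of the 31-mers of *Serpina1a*, *Serpina1c*, *Serpina1d* and *Serpina1e* occur in another gene. The lower share of *Serpina1b* is counted over 2222 31-mers from 4 annotated transcripts, against 1364 from 1 transcript for *Serpina1d*. *Serpina3m* shared 35%, with 24.5% of its 31-mers shared with *Serpina3k*, *Serpina3k* 24.2%, *Serpina3n* 21.6% and *Serpina6* 0%.

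The 5 *Serpina1* genes together made up 3.07 and 2.64% of all TPM in WT livers and 3.39 and 2.65% in *Usp21* KO livers. Their summed level was 30671 and 26352 TPM in WT against 33810 and 26483 TPM in KO libraries. The groups overlapped, and the log2 ratio of KO to WT was 0.07 against a pooled SD of 0.21 between libraries. The *Serpina3* genes summed to 4826 and 3830 TPM in WT against 5407 and 4419 TPM in KO libraries, a log2 ratio of 0.19 with a pooled SD of 0.22. *Serpina3k* made up 90.0 to 96.9% of that sum, so the sum says little of the other *Serpina3* genes.

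**Figure D1:**
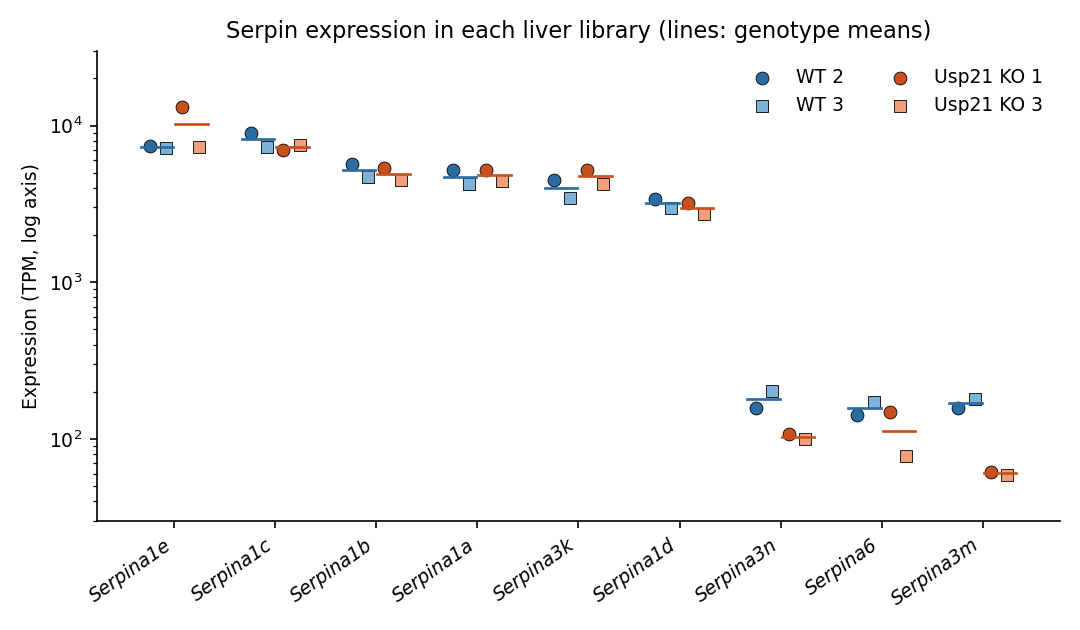
Level in TPM (log axis) of the 9 serpin genes above 0 in each of the 2 WT (blue) and 2 *Usp21* KO (orange) libraries, 1 point per library, with lines at the genotype means. The *Serpina1* genes and *Serpina3k* sit between 2715 and 13071 TPM, *Serpina3m*, *Serpina3n* and *Serpina6* between 59.3 and 203 TPM, and the groups are apart for *Serpina3m* and *Serpina3n*.

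The order of the mean levels was *Serpina1e*, *Serpina1c*, *Serpina1b*, *Serpina1a*, *Serpina3k*, *Serpina1d*, *Serpina3n*, *Serpina6* and *Serpina3m*, with *Serpina3c* at 0 in all 4 libraries. Ranked by mean TPM among all genes, *Serpina1e* was number 25 and *Serpina1d* number 49. The next, *Serpina3n*, was number 610, and *Serpina3m* was number 739. *Serpina1e* exceeded *Serpina1c* in only 1 of 4 libraries. The ranges of *Serpina1b* and *Serpina1a* overlapped, although *Serpina1b* was higher in all 4 libraries, and those of *Serpina1a* and *Serpina3k* and of *Serpina3n*, *Serpina6* and *Serpina3m* overlapped as well. No overlap was seen between *Serpina1c* and *Serpina1b*, between *Serpina3k* and *Serpina1d*, or between *Serpina1d* and *Serpina3n*.

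Across genotypes, most of these genes differed little, and *Serpina3m* differed most. Of the 10 genes, 9 had a mean of at least 1 TPM and were tested with limma on log2(TPM + 1), where the pseudocount of 1 understates the change of low genes. The log2 fold changes below are KO minus WT on that scale. 1 of the 9, *Serpina3m*, differed by at least 2-fold, against 3.68% of the 9581 genes tested, or 1.1% for at least 2-fold lower. 2 of the 9 had an unadjusted p under 0.05, against 10.5% of all genes tested. None passed an adjusted p of 0.05 in limma with Benjamini-Hochberg adjustment over all genes, against 0.0835% of all genes. A p that misses the threshold with 2 libraries a group does not show that the levels were equal. On reads worked back from the deposited CPM, *Serpina1a*, *Serpina3m*, *Serpina3n* and *Serpina6* had 0 reads in all 4 libraries, so edgeR and DESeq2 could not call them. No other serpin had more than 4 reads in any library, and neither tool called one. The groups did not overlap, with KO lower, in 2 of the 9, against 10.9% of all genes. In none of the 9 did the groups stand apart with KO higher, a pattern found in 34.4% of all genes tested. By mean, 3 genes were higher and 6 were lower in KO. Their median log2 fold change, -0.10, compares with 0.15 over all genes tested. With 2 libraries a group, an exact two-sided permutation test of a single gene cannot give a p below 0.333.

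**Figure D2:**
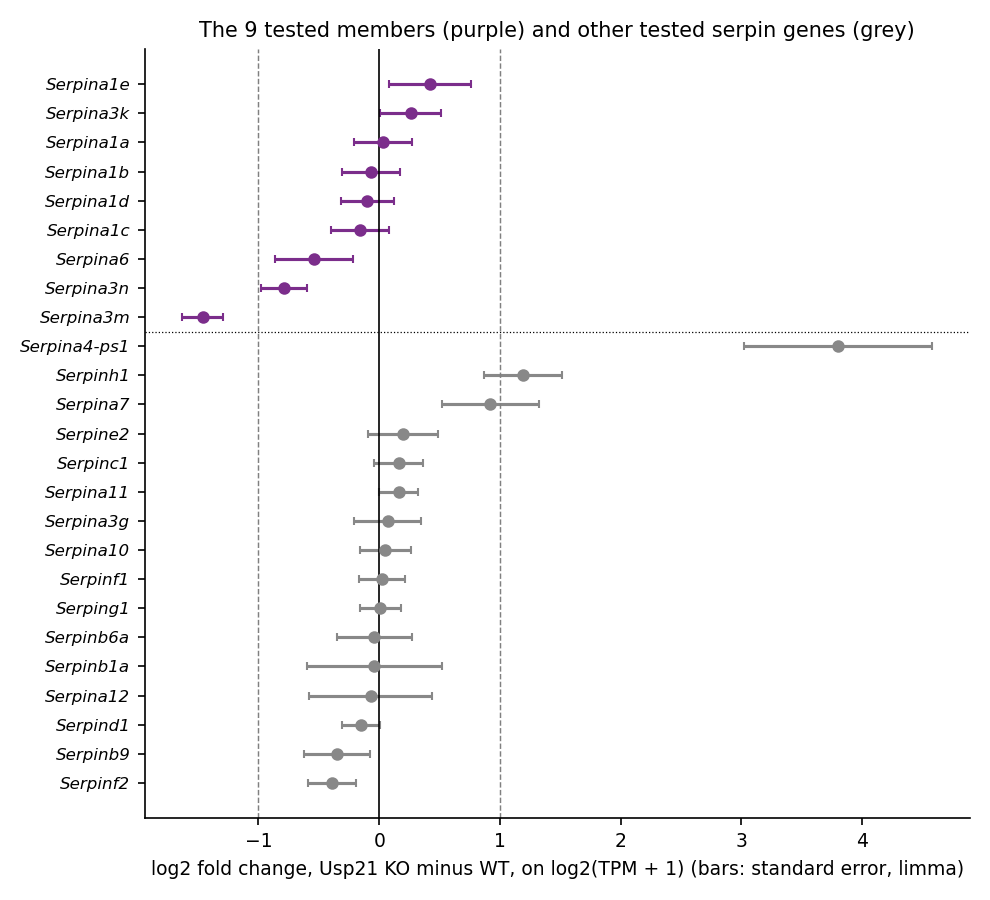
Log2 fold change (KO minus WT, log2(TPM + 1) scale) of the 9 tested serpin genes (purple) and of the other tested genes with a *Serpin* symbol (grey). Bars are 1 standard error from limma, and dashed lines mark 2-fold. *Serpina3m*, at -1.46, is the one purple point past 2-fold, and among the grey points *Serpina4-ps1*, at 3.80, and *Serpinh1*, at 1.19, are past it.

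*Serpina3m* was 157 and 181 TPM in WT livers and 61.6 and 59.3 TPM in *Usp21* KO livers. The groups did not overlap, and the libraries within each group were close together. The means were 168.9 ± 16.7 and 60.45 ± 1.64 TPM (SD, n = 2 each), and the level in WT was 2.76-fold that in KO. The log2 fold change was -1.46 (SE 0.17, 95% interval -1.88 to -1.05) with an adjusted p of 0.102 in limma with Benjamini-Hochberg adjustment, which misses the threshold. Its unadjusted p, 0.00017, was number 16 among the 9581 genes. The adjusted p ranged from 0.0859 to 0.622 over the 11 other settings of the TPM fit, and the log2 fold change from -1.56 to -1.36 with 1 library left out at a time. The loop of *Serpina3m* carries arginine at the P1 codon count, like that of *Serpina3k*. *Serpina3m* has 1629 transcript 31-mers, of which 1059 occur in no other gene and 24.5% occur in *Serpina3k*, itself at 3446 to 5238 TPM. The effect of this sharing on the level of *Serpina3m* was not tested.

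*Serpina3n*, an inducible acute phase inhibitor of serine proteases such as granzyme B and cathepsin G, was 158 and 203 TPM in WT against 107 and 99.8 TPM in KO livers. Here too the higher KO library was below the lower WT library. The means were 180.7 ± 31.9 and 103.4 ± 5.23 TPM (SD, n = 2 each), 1.73-fold higher in WT. The log2 fold change was -0.79 (SE 0.19, 95% interval -1.26 to -0.32), and the unadjusted p of 0.00692 became 0.458 after Benjamini-Hochberg adjustment of the limma test. WT 3, the library with the highest *Serpina3n*, also had the highest sum of neutrophil and lymphocyte markers. All 27 genes of the acute phase and STAT3 response list summed to 18745 TPM in WT 3, 17782 TPM in KO 1, 13602 TPM in KO 3 and 12161 TPM in WT 2. *S100a8*, a neutrophil calprotectin subunit, was 29.1 TPM in WT 3 and at most 2.26 TPM elsewhere. *Lcn2*, an acute phase gene, was 67.1 TPM in WT 3 and at most 4.59 TPM elsewhere. *Saa1*, the acute phase serum amyloid A, was 1089 TPM there and 47.8 to 162 TPM elsewhere; it was picked after its values were seen. Their part in the *Serpina3n* difference was not tested. Without WT 3, which leaves only WT 2 on the WT side, the log2 fold change of *Serpina3n* was -0.61 and that of *Serpina3m* -1.36.

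*Serpina3k*, also known as contrapsin for its action on trypsin-like enzymes, went the other way by mean. It was 4511 and 3446 TPM in WT against 5238 and 4260 TPM in KO livers, and WT 2 lay above KO 3. The log2 fold change was 0.26 (SE 0.25, limma with Benjamini-Hochberg adjusted p = 0.705), with a 95% interval of -0.37 to 0.89. *Serpina3c* was listed at 0 in all 4 libraries. Within single libraries, the level of *Serpina3k* was 28.7 and 19.1 times that of *Serpina3m* in WT and 85.0 and 71.8 times in KO. The level of *Serpina3n* was 1.01 and 1.12 times that of *Serpina3m* in WT and 1.74 and 1.68 times in KO. These ratios do not depend on how the libraries were scaled. *Serpina3m* held 3.26 and 4.72% of the *Serpina3* sum in WT libraries and 1.14 and 1.34% in KO libraries.

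The *Serpina1* genes were close to equal in the 2 genotypes except in 1 library. *Serpina1a* was 5222 and 4225 TPM in WT against 5181 and 4452 TPM in KO livers, and *Serpina1b* 5698 and 4668 TPM in WT against 5353 and 4496 TPM in KO. *Serpina1c*, the copy with the least sequence of its own, was 8950 and 7344 TPM in WT against 6985 and 7551 TPM in KO. *Serpina1d*, the lowest, was 3411 and 2958 TPM in WT against 3220 and 2715 TPM in KO. The groups overlapped in all 4 genes, and the log2 fold changes lay between -0.16 and 0.03, with SE of 0.22 to 0.24. The widest of their intervals, -0.77 to 0.45 for *Serpina1c*, leaves room for a difference of either sign.

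*Serpina1e* was 7391 and 7157 TPM in WT livers and 13071 and 7270 TPM in *Usp21* KO livers. KO 1 alone was high, and KO 3 lay between the WT libraries. The means were 7274 ± 165 and 10171 ± 4103 TPM (SD, n = 2 each), and the log2 fold change of 0.42 (SE 0.34, 95% interval -0.43 to 1.27) did not pass the limma test (Benjamini-Hochberg adjusted p = 0.654). Without KO 1 it was -0.00065, and without KO 3 it was 0.85, so KO 1 set this difference. The part of the cell type markers that were lowest or highest in KO 1 was not tested. *Serpina1e* held 38.7% of the *Serpina1* sum in KO 1 and 24.1 to 27.4% in the other 3 libraries, while *Serpina1c* held 20.7% in KO 1 and 27.9 to 29.2% in the others. The ratio of *Serpina1e* to *Serpina1c* was 1.87 in KO 1 and 0.826 to 0.975 elsewhere. By contrast, the ratio of *Serpina1a* to *Serpina1b*, the copies with methionine at P1, stayed between 0.905 and 0.990 in all 4 libraries.

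**Figure D3:**
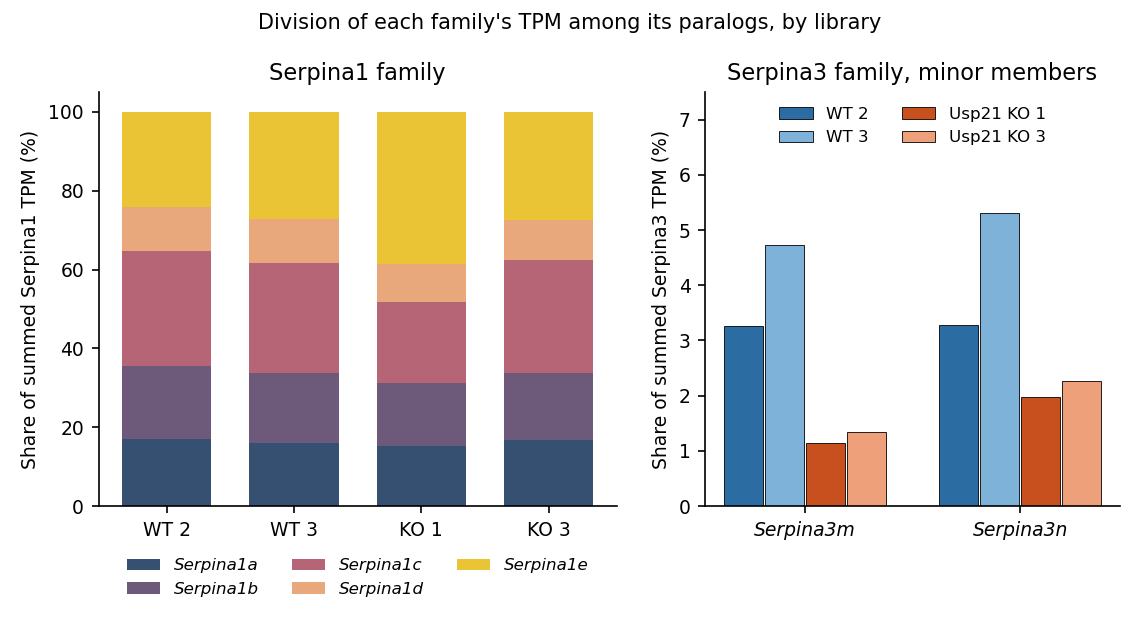
Left, share of each *Serpina1* gene in the family's summed TPM, in percent, as stacked bars for the 4 libraries; right, shares of *Serpina3m* and *Serpina3n* in the *Serpina3* sum, 1 bar per library. *Serpina1e* takes 38.7% in KO 1 against 24.1 to 27.4% elsewhere, and *Serpina3m* takes 1.14 and 1.34% in KO against 3.26 and 4.72% in WT.

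*Serpina6* was 143 and 171 TPM in WT against 148 and 78.2 TPM in KO livers. KO 1 lay between the WT libraries and only KO 3 was low. The means were 157.4 ± 19.9 and 113.1 ± 49.4 TPM (SD, n = 2 each), with a log2 fold change of -0.54 (SE 0.32) and an adjusted p of 0.557 (limma, Benjamini-Hochberg). It was -0.08 without KO 3 and -0.99 without KO 1. *Serpina6* shares no 31-mer with another gene, so its level does not depend on splitting reads between copies.

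**Figure D4:**
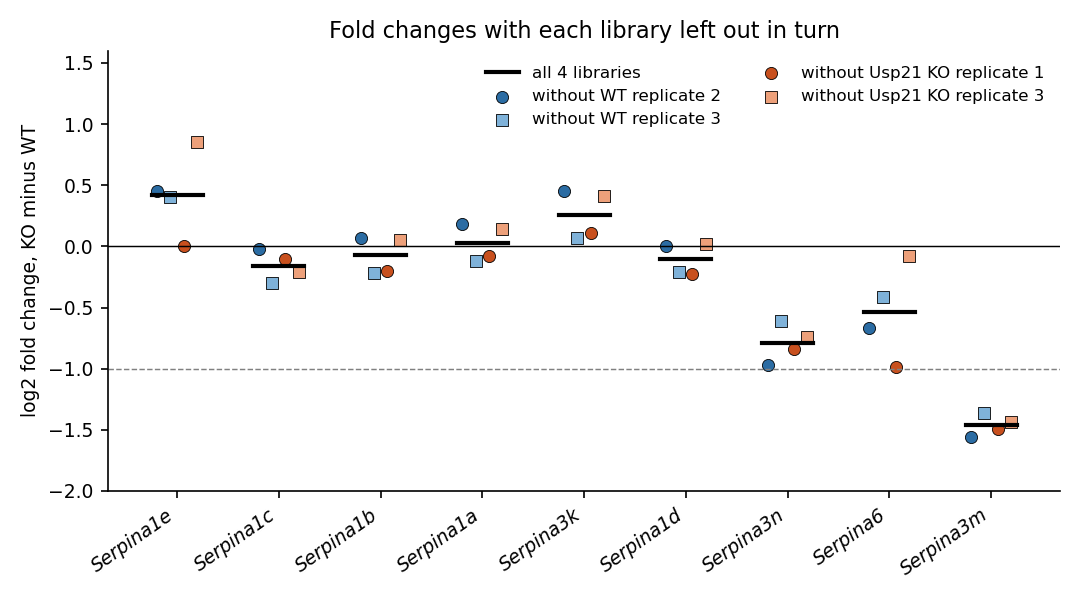
Log2 fold change (KO minus WT, log2(TPM + 1) scale) of each tested serpin gene with all 4 libraries (black line) and after leaving out 1 library at a time (points); the dashed line marks 2-fold lower. *Serpina3m* stays between -1.56 and -1.36, *Serpina1e* moves from -0.00065 without KO 1 to 0.85 without KO 3, and *Serpina6* from -0.99 without KO 1 to -0.08 without KO 3.

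The genes whose pattern over the 4 libraries was most like each serpin were found among the 4025 genes whose mean reached 10 TPM, by the root mean square difference of log2(TPM + 1) values centred on each gene's mean. With 4 libraries, many genes share any simple pattern, and the likeness is a description. *Serpina3m* had no gene within 0.1. Its nearest were *Cyp2a5*, a cytochrome P450 of coumarin oxidation, at 0.104, *Srebf1*, which encodes the lipogenic regulator SREBP-1, at 0.137, and *Tef*, a clock-controlled transcription factor, at 0.213. *Cyp2a5* was 495 and 616 TPM in WT against 222 and 177 TPM in KO, and *Srebf1* was 58.1 and 64.3 TPM in WT against 27.3 and 20.7 TPM in KO. *Serpina3n* had 3 genes within 0.1, led by *Psmb10*, a subunit of the immunoproteasome, at 0.058, then *Pex11g* at 0.069 and *Plpp2* at 0.079.

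*Serpina1e* had 24 genes within 0.1, among them *Repin1* at 0.049 and *Bclaf1* at 0.053. *Repin1* was 8.21 and 8.10 TPM in WT against 16.8 and 8.24 TPM in KO, so it too was high in KO 1 alone. *Serpina6* had 13 genes within 0.1, among them *Lyplal1* at 0.046 and *Aldh1l1* at 0.065. The other *Serpina1* genes and *Serpina3k*, which differed little between libraries, had 140 to 364 genes within 0.1. Among their nearest were *Slc47a1*, *Calm2* and *Cyp2d22* for *Serpina1a*, *Arpc4*, *Slco2b1* and *Bche* for *Serpina1b*, *Acaa2*, *Htatip2* and *Ap2m1* for *Serpina1c*, *C1rl*, *Bmp1* and *Esd* for *Serpina1d*, and *Ces1e* and *Ctnnd1* for *Serpina3k*. Among the serpins themselves, *Serpina1b* and *Serpina1d* were the closest pair, at 0.033, followed by *Serpina1a* and *Serpina1b* at 0.054.

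All 10 genes lie on chromosome 12 in GRCm38. *Serpina6* is at chr12:103646630-103657212 and, like the *Serpina1* genes, on the reverse strand. The *Serpina1* genes run from *Serpina1b* (chr12:103728156-103830373, an annotated extent that spans *Serpina1d*), *Serpina1d* (chr12:103763594-103773592) and *Serpina1a* (chr12:103853589-103863562) to *Serpina1c* (chr12:103894926-103904887) and *Serpina1e* (chr12:103946931-103958975). *Serpina3c* follows on the same strand at chr12:104146382-104153870. *Serpina3k* (chr12:104338486-104346144), *Serpina3m* (chr12:104338486-104394257) and *Serpina3n* (chr12:104406729-104414329) are on the forward strand. 1 annotated transcript of *Serpina3m* begins at the start of *Serpina3k* and overlaps it, and an antisense gene, *B430119L08Rik*, overlaps *Serpina1c*. The window from 0.5 Mb before to 0.5 Mb after the serpin cluster holds 66 annotated genes, of which 21 were tested. Of the 12 that are not among the 10 serpins, 1 differed by at least 2-fold, against 3.68% of all genes tested. Their median log2 fold change was 0.10. *Serpina3m* and *Serpina3n*, the 2 genes lower in KO without overlap, are neighbours, and *Serpina3k* beside them was higher by mean.

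**Figure D5:**
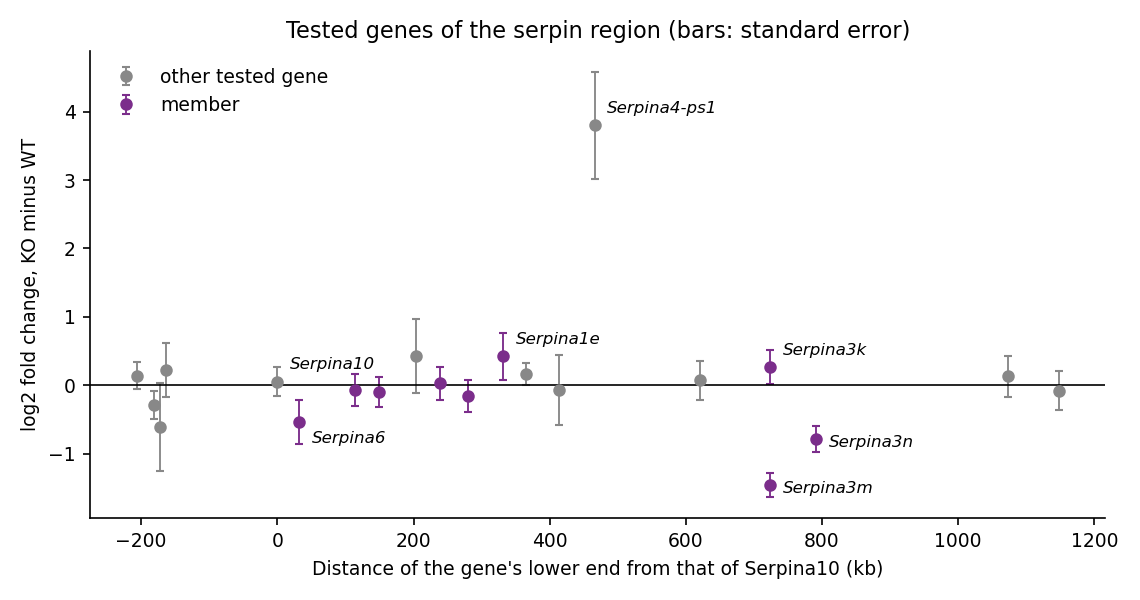
Log2 fold change (KO minus WT, log2(TPM + 1) scale, bars of 1 standard error) of the tested genes of the serpin region against the distance in kb of each gene's lower end from that of *Serpina10*, with the serpins studied in purple and other genes in grey. *Serpina3m*, at -1.46, is drawn at the same place as *Serpina3k* because an annotated transcript starts there; *Serpina3n* is at -0.79, and *Serpina4-ps1*, at 3.80, is the one grey gene past 2-fold.

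That other gene was *Serpina4-ps1*, an annotated pseudogene of the same cluster. It was 0.494 and 2.58 TPM in WT against 67.6 and 14.1 TPM in KO livers, so the KO libraries were the higher ones, by very different amounts. The log2 fold change was 3.80 (SE 0.78), and its adjusted p, 0.408 in limma with Benjamini-Hochberg adjustment, misses the threshold. None of its 31-mers occurs in another gene. Of 6 tested genes outside the set with a *Serpina* symbol, it alone differed by at least 2-fold, against 3.68% of all genes tested. The 6 had a median of 0.12 on that scale. The count past 2-fold was 2 without WT 3 and 2 without KO 1.

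Other plasma protease inhibitors of the liver were read beside all genes tested. Of all genes tested, 3.68% passed 2-fold and 10.5% had an unadjusted p under 0.05, so a short list with none past 2-fold does not stand apart. Among 17 inhibitors tested (alpha-2-macroglobulin, inter-alpha-trypsin inhibitor chains and the like), none reached 2-fold and 1 had an unadjusted p under 0.05. Their median was 0.01. The most abundant, *Ahsg*, which encodes fetuin-A, was 7497 and 6802 TPM in WT against 6738 and 5480 TPM in KO. *Ambp*, which encodes bikunin, was 1868 and 2431 TPM in WT against 2350 and 2189 TPM in KO. None of the 6 tested proteases that clade A serpins inhibit reached 2-fold, against 1 without WT 2 and 1 without KO 1. The most abundant of them were the prothrombin gene *F2*, at 689 to 816 TPM, and the protein C gene *Proc*, at 326 to 392 TPM. Of 19 genes of the folding, secretion and disposal of alpha-1 antitrypsin, none reached 2-fold and 2 had an unadjusted p under 0.05, both higher in KO; without WT 2, 1 reached 2-fold. The chaperone gene *Calr* was 477 to 588 TPM, and *Hspa5*, which encodes BiP, was 260 and 256 TPM in WT against 274 and 478 TPM in KO.

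Of 26 tested acute phase and STAT3 response genes, 2 were at least 2-fold higher and 4 at least 2-fold lower in KO. Of all genes tested, 3.68% passed 2-fold in either direction. None of the 26 had an adjusted p under 0.05 in limma. Of the 5 with an unadjusted p under 0.05, 4 were higher and 1 was lower in KO. In 8 the groups stood apart with KO higher and in 3 with KO lower, against 34.4 and 10.9% of all genes tested. *Apcs*, serum amyloid P, was 51.3 and 80.3 TPM in WT against 224 and 138 TPM in KO, and *Il1r1*, the interleukin-1 receptor gene, 4.50 and 2.55 TPM in WT against 10.8 and 7.38 TPM in KO. *Orm3*, an orosomucoid gene, was 4.91 and 9.76 TPM in WT against 1.39 and 2.55 TPM in KO. Acute phase genes were thus found in both directions, and *Serpina3n* and *Serpina3m* were on the lower side. WT 3 was the highest library for both *Orm3* and *Lcn2*.

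Of 19 regulators of the serpin genes, 15 were higher and 4 lower in KO by mean. Their median log2 fold change was 0.36, against 0.15 over all genes tested, which leaned the same way. In 11 the groups stood apart with KO higher, against 34.4% of all genes tested, and in 0 with KO lower, against 10.9%. Among the regulators, *Onecut1*, which encodes HNF6, was 2.41 and 1.45 TPM in WT against 10.5 and 3.73 TPM in KO. *Foxa1* was 2.53 and 1.61 TPM in WT against 8.97 and 3.01 TPM in KO, and both genes were highest in KO 1. They were the 2 that passed 2-fold. Of the 19, 3 had an unadjusted p under 0.05, against 10.5% of all genes tested, and none had an adjusted p under 0.05 in limma. Without KO 1 the count past 2-fold was 0, without KO 3 it was 4, and it was 0 with a pseudocount of 5 or a minimum mean of 5 TPM. Among 17 genes of corticosteroid transport and action, the list of *Serpina6*, 1 passed 2-fold. It was *Zbtb16*, a glucocorticoid-induced transcription factor gene, at 0.773 and 0.904 TPM in WT against 4.61 and 2.83 TPM in KO. This count was 3 without WT 2, 3 without WT 3, 4 without KO 1 and 2 without KO 3, and 0 with a pseudocount of 5 or a minimum mean of 5 TPM. Of 14 tested growth hormone response genes, 2 were at least 2-fold higher in KO and none lower. They were *Onecut1* and *Elovl3*, a fatty acid elongase gene, which was 87.5 and 10.8 TPM in WT against 253 and 208 TPM in KO. The count past 2-fold in either direction was 4 without WT 3, 4 without KO 1, and 1 with a pseudocount of 5 or a minimum mean of 5 TPM. No gene of these lists had an adjusted p under 0.05 in limma. In the corticosteroid and growth hormone lists, 6 and 3 genes had an unadjusted p under 0.05, against 10.5% of all genes tested. Of all genes tested, 3.68% passed 2-fold.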

How the data were processed

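Liver RNA was sequenced on a MiSeq from WT (replicates 2 and 3) and *Usp21* KO (replicates 1 and 3) mice. Per the labels and the study's methods, the authors quantified TPM with Salmon and deposited them per gene, with no read depth kept. A second deposited table holds a depth-scaled signal, the HTSeq counts of each gene after TMM normalization by the authors (CPM). The authors also deposited both tables on a log2 scale, and these were not used here. The build named is mm10, and tool versions are not given in the sources used here. In the CPM table all values above 0 were whole multiples of 1 read within 0.02, which gave 102898 to 148164 reads per library. The 10 serpins had 0 to 4 reads each per library there, and 5 of them had 0 in all 4 libraries, so TPM were used; the cause of this gap between the tables was not tested.

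TPM were converted to log2(TPM + 1). The 9581 genes whose mean reached 1 TPM were fitted with limma 3.58.1 (R 4.3.3, variance trend, prior degrees of freedom 3.62) on genotype, two-sided, with Benjamini-Hochberg adjustment over all of them. Scripts were tested on simulated data. Alternatives were pseudocounts, filters, scalings, unmoderated variances, the CPM table, edgeR 4.0.16, DESeq2 1.42.0, and leaving out each library. Sequence comparisons used GENCODE M21 transcripts (Biopython 1.88). All 10 serpins were named. Of each other list, at most 5 genes were named: those at least 2-fold apart without overlap, or else the 2 most abundant. The 3 genes most like each serpin were named, except a few that are not reported here. *Saa1* and *S100a8* were chosen after their values were seen. Members and lists were chosen with earlier results of these data known. Protein sequences were not used here.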

Additional observations from a re-analysis of the deposited data

How the results depend on the processing

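No serpin passed the adjusted threshold under the 11 alternatives of the TPM fit. The 3 others, on the CPM table, hold 0 reads for *Serpina1a*, *Serpina3m*, *Serpina3n* and *Serpina6* and bear on none of these. 1 serpin, *Serpina3m*, was at least 2-fold apart in every alternative of the TPM fit, and its direction, like that of *Serpina3n*, *Serpina3k*, *Serpina1c* and *Serpina6*, held in the 11 alternatives of the TPM fit. The count was 3 with TMM-normalized CPM, 4 with edgeR and 4 with DESeq2 on the recovered reads, where no serpin had more than 4 reads in a library. The *Serpina1* summed log2 ratio was -0.20 with CPM. *Serpina1e*, the one serpin with more than 3 reads in a group, had log2 fold changes of 2.06, 1.11 and 1.21 in CPM, edgeR and DESeq2. Small differences turned sign: *Serpina1a* was -0.07 with upper quartile scaling, -0.01 with equal totals and -0.12 to 0.18 with 1 library left out; *Serpina1b* -0.22 to 0.07, *Serpina1d* -0.23 to 0.02 and *Serpina1e* -0.00065 to 0.85 with 1 library left out. Of all genes tested, 353 differed by at least 2-fold, 70.3% of them higher in KO; with pseudocount 0.1 there were 820, with pseudocount 5 there were 115 (60.9% higher), with a mean of at least 5 TPM 203, with CPM 3134 (60.0% higher), edgeR 2915 (60.8% higher), DESeq2 3018 (59.1% higher), and 482 to 708 with 1 library left out. The count was 319 with upper quartile scaling, 60.8% higher. No paired analysis was done, because the labels do not say which WT and KO mice belong to the same litter.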

Other observations

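Liver serpins without a *Serpina* symbol, most of them of clades that control clotting, complement and cell proteases, differed little. Of 11 tested, 5 were higher and 6 lower in *Usp21* KO by mean, with a median log2 fold change of -0.04. At least a 2-fold difference was found in 1, against 3.68% of all genes tested. That gene was *Serpinh1*, which encodes the collagen chaperone HSP47, at 2.05 and 2.17 TPM in WT against 8.29 and 4.44 TPM in KO livers. Its log2 fold change was 1.19 (SE 0.32, limma with Benjamini-Hochberg adjusted p = 0.464), and no gene of the list was 2-fold apart without KO 1, with a pseudocount of 5 or with a minimum mean of 5 TPM. The remaining values were chosen after they were seen. *Serpinc1*, which encodes antithrombin, was 2178 and 2027 TPM in WT against 2548 and 2168 TPM in KO. *Serpinf2*, which encodes alpha-2-antiplasmin, was 421 and 324 TPM in WT against 299 and 266 TPM in KO, and *Serping1*, the C1 inhibitor gene, was 344 to 386 TPM.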
